A study of Homo sapiens with 12 samples.

Results

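The genes described carry a LINC symbol (for long intergenic non-coding RNA) followed by digits. Their mean estimated count over the 12 samples was at least 20. They were chosen by symbol, and not all of them are annotated as intergenic non-coding RNA genes. Of 1797 LINC symbols among the 60099 genes in the deposited table, 116 met this rule, 559 were above 0 with a smaller mean, and 1122 were at 0 in every sample. The closest genes inside the limit were LINC01535, LINC01291 and LINC00944, with mean counts of 20.2, 20.3 and 20.3. The closest outside were LINC00888, LINC02454 and LINC01238, with mean counts of 19.6, 19.8 and 19.8. RNA came from Cal27 and HN30, established HNSCC (head and neck squamous cell carcinoma) lines, either untreated or cultured for 24 h with IFNα at 20 or 200 ng/ml. Letters A and D denote untreated controls, B and E the 20 ng/ml dose, and C and F the 200 ng/ml dose, with 2 replicates per letter. Letters A to C (set A-C) and D to F (set D-F) were treated as the 2 lines, which cannot be assigned by name from the sources used here. Nothing stated that replicates came from separate cultures, so p-values measure the spread between these samples, which may be technical.

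LincRNA genes lie between coding genes, are spliced and polyadenylated like mRNAs, and are usually expressed at low levels and in fewer tissues than coding genes. IFNα binds its receptor on the cell surface and switches on interferon-stimulated genes, many of which carry the interferon-stimulated response element (ISRE) in their promoters. Some non-coding RNA genes are induced by the same pathway, often beside an induced coding gene, and others mark squamous carcinoma cells or the lineage of a line.

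The total estimated count was between 10517448 and 16056734 per sample, and the 4 samples at 200 ng/ml were each shallower than all 4 controls. Pairs of samples within a set correlated at 0.944 to 0.979 in log2 expression over 13034 genes, and pairs from different sets at 0.722 to 0.758. All 40 genes of a list of known interferon-stimulated genes were called higher at both doses, and at 200 ng/ml their median on the log2 scale was 2.97. The summed level of 10 squamous epithelial markers was between 1239 and 3384 TPM, with KRT14 alone ranging from 0 to 49.2 TPM. Of 8 immune markers, 6 stayed under 1 TPM in every sample, and the leukocyte gene PTPRC did not exceed 0.0425 TPM. The sum of the 8 immune markers was 5.34 to 12.5 TPM in controls, 13.5 to 30.1 at 20 ng/ml and 18.6 to 40.6 at 200 ng/ml, nearly all of it from CD68, a lysosomal gene. Fibroblast and endothelial markers summed to at most 15.4 and 21.7 TPM. Of 4 endothelial markers, 3 stayed under 1 TPM in every sample, while CDH5 ranged from 0 to 21.7 TPM.

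The promoters of the 3 LINC genes that were called higher at 200 ng/ml are shown, together with that of a LINC gene that carries an ISRE core and was not called, so that the sequence of the responding genes can be set beside the motif. Each runs from 250 bases before to 50 bases after the RefSeq start on GRCh38.p14. For the called genes, capitals mark the bases from the RefSeq start onward. For LINC00623, capitals mark the ISRE core.
LINC01285, chrX:118839306-118839605, plus strand: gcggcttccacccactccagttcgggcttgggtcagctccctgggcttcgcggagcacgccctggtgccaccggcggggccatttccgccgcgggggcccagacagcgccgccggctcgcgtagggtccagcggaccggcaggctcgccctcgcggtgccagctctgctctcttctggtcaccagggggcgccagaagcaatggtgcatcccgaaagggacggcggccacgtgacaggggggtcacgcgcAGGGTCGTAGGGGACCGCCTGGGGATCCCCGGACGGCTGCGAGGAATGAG
LINC02009, chr3:46423618-46423917, minus strand: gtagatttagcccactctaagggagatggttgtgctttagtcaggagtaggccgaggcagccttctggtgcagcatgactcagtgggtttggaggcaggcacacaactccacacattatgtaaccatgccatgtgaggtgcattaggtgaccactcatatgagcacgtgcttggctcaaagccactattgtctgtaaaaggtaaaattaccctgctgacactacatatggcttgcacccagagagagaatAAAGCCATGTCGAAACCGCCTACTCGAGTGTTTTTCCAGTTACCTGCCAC
LINC00973, chr3:98980805-98981104, plus strand: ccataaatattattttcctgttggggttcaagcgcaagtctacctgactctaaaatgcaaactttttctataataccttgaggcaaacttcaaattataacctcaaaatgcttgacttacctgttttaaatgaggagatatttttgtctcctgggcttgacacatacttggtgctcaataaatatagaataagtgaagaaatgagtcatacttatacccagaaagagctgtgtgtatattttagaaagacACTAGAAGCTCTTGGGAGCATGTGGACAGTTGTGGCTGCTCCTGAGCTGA
LINC00623, chr1:120912967-120913266, plus strand: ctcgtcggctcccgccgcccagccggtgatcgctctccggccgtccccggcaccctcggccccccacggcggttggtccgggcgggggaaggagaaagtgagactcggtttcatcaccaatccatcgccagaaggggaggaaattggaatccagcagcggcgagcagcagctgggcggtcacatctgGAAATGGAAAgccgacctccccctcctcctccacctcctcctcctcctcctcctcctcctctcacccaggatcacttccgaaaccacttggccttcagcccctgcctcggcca
The RefSeq start lay 2 bases from the start in the deposited table for LINC01285, 3 bases for LINC00973, 58 for LINC00623 and 76 for LINC02009. The ISRE core searched was a pair of GAAA half-sites with any 2 bases between them, on either strand, and the gamma-activated site was TTC and GAA with any 3 bases between them. None of the 3 called promoters held either within this window, which says only that these letters are not there.

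In GENCODE 29, 84 of the 116 genes were annotated as lincRNA, 12 as processed transcripts, 7 as antisense and 2 as bidirectional promoter lncRNA, while 7 were transcribed pseudogenes (6 unprocessed and 1 unitary). The remaining 4 were annotated as protein coding: LINC00998 (SMIM30), LINC00116 (MTLN), LINC00094 (BRD3OS) and LINC01125 (C2orf92). Mean levels ranged from 0.835 to 177 TPM (deposited transcript levels scaled for length and depth), with a median of 6.29. Of the 116, 76 reached 1 TPM in all 12 samples and 33 had a mean of at least 10 TPM. Together they held 0.104 to 0.111% of all counts in set A-C and 0.146 to 0.154% in set D-F.

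The 8 most abundant LINC genes made up 39.1 to 52.3% of the summed LINC TPM. LINC01002 was highest, with a mean of 177 TPM and a range of 97.3 to 289. LINC01468 followed with a mean of 160 TPM. It is now named LNCAROD after its action on DKK1, a secreted Wnt inhibitor gene that lay 133 kb away. In LINC01468 the 6 samples of set A-C held 39.8 to 70.9 TPM and those of set D-F 241 to 277, so the sets did not overlap. LINC00958 was nearly level across samples, at 102 to 136 TPM. LINC00969 (MUC20-OT1) was higher in set A-C, at 96.8 to 125 TPM against 53.4 to 75.4 TPM. LINC00511, often raised in carcinomas, was higher in set D-F, at 89.5 to 115 against 30.7 to 47.7 TPM. LINC01021 is PURPL, a p53-induced RNA, and was at 0 to 0.200 TPM in set A-C and 47.6 to 139 in set D-F. LINC01002 and LINC01001 share 77.6% and 90.9% of their 31-base words with genes elsewhere in the genome, so their levels depend on how reads were divided and are uncertain.

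**Figure D1:**
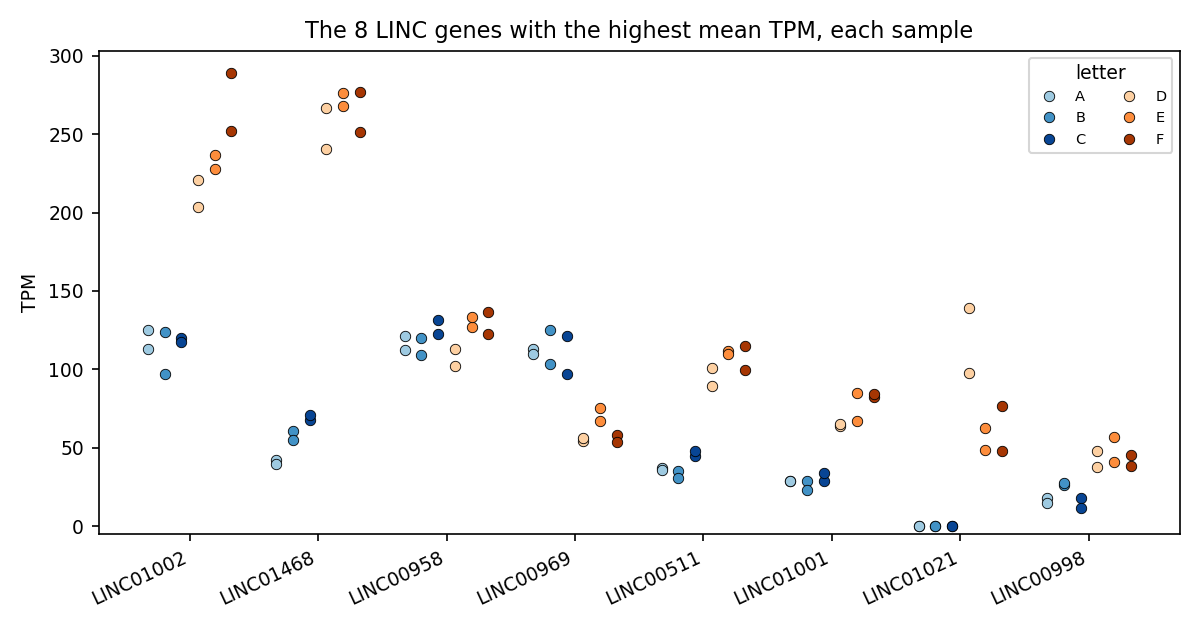
TPM (vertical axis, linear) of the 8 LINC genes with the highest mean TPM (horizontal axis), with a point for each of the 12 samples coloured by letter. LINC01468, LINC00969, LINC00511, LINC01021 and LINC00998 separate set A-C from set D-F without overlap, whereas LINC00958 lies between 102 and 136 TPM in all samples.

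At 200 ng/ml, LINC01285, LINC02009 and LINC00973 were higher than in the controls and LINC01963 and LINC01116 were lower, and the other 111 LINC genes were not called. A gene was called at a change of at least 2-fold and a Benjamini-Hochberg adjusted p of at most 0.05 in edgeR's quasi-likelihood test over 19944 genes. Thus 5 of 116 were called, 3 higher and 2 lower, where 2.14% of all tested genes were called, 1.58% higher and 0.552% lower. All 116 passed the filter on low counts. The median log2 fold change of the 116 was -0.01, as it was for all tested genes, and 104 lay between -1 and 1, with a median SE of 0.28. DESeq2 called 5 LINC genes, 4 higher and 1 lower. It called LINC00665 higher and did not call LINC01116.

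LINC01285 (chrX:118839554-118919669, plus strand) is a spliced lincRNA of 4 annotated transcripts. It had 22 and 14 counts in A1 and A2, 118 and 121 in B1 and B2, and 114 and 91 in C1 and C2. In the other set it had 0 counts in D1 and D2, 31 and 33 in E1 and E2, and 32 and 29 in F1 and F2. Every treated sample lay above both controls of its set. In TPM, it went from 1.05 ± 0.526 in A to 7.38 ± 0.705 in B and 7.83 ± 0.385 in C (mean ± SD, n = 2). In set D-F it was listed at 0 in D and stood at 2.37 ± 0.112 TPM in E and 2.33 ± 0.195 TPM in F. As CPM, counts scaled to the library total, C was 7.0-fold above A, and F was at least 12.8-fold above D, computed against 3 counts per library, the limit that a count of 0 allows. These limits cover counting error only. The fitted log2 fold change over both sets was 5.45 ± 0.38 (SE, edgeR adjusted p = 5.63e-05), a value that depends on the prior count because D was at 0. Over the alternatives it lay between 3.73 and 5.72, a range that the SE does not cover. The call held in all 18 alternative settings.

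LINC02009 (chr3:46416524-46423591, minus strand) had 45 and 57 counts in A, 47 and 89 in B, and 81 and 75 in C. It had 0 and 0 in D, 5 and 2 in E, and 2 and 8 in F. The gene lies 3.53 kb from CCRL2, a chemokine receptor-like gene, whose log2 fold change at 200 ng/ml was 0.99 and was not called. C exceeded A in both replicates, 1.97-fold in CPM, whereas set D-F stayed within 8 counts of 0. The mean CPM of F was 2.08-fold above a D level set at 3 counts per library. The F sample with 2 counts lay below that level. The fitted log2 fold change over both sets was 3.23 ± 0.68 (SE, edgeR adjusted p = 0.0204), which depends on the prior count because D was at 0, and it was 1.03 ± 0.43 in set A-C by itself (SE, edgeR adjusted p = 0.203). Over the alternatives the value lay between 1.27 and 3.56. It kept its call in 12 of 18 alternatives and lost it without A2, D1 or D2, at log2 fold changes of 3.21 to 3.22, and without F2, at 2.6.

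LINC00973 (chr3:98981058-98983096, plus strand) was higher than the controls in set D-F, and its response to 200 ng/ml differed between the sets by 2.73 ± 0.71 on the log2 scale (SE, edgeR adjusted p = 0.092), which was not called. It had 42 and 51 counts in A, 41 and 57 in B, and 43 and 35 in C, so the doses of set A-C overlapped. It had 9 and 3 in D, 26 and 14 in E, and 24 and 49 in F, with every treated sample above both controls. Its level in F, 5.54 ± 2.68 TPM, was close to that of A, 5.4 ± 0.243 TPM (SD, n = 2). The fitted log2 fold change over both sets was 1.53 ± 0.36 (SE, edgeR adjusted p = 0.0263). The call held in 11 of 18 alternatives and was lost without A1, A2, C1, C2, D2 or F2, with log2 fold changes of 1.23 to 1.55.

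LINC01963 (chr2:216217045-216220192, plus strand), a single-exon transcript of 3148 bases that lies 10.7 kb from the DNA repair gene XRCC5, was lower in treated samples of both sets. It had 292 and 330 counts in A, 178 and 230 in B, and 147 and 139 in C. It had 249 and 315 in D, 43 and 72 in E, and 36 and 41 in F. No treated sample reached the controls of its set, and the E and F samples were lowest. TPM was 11.2 ± 1.04 in A and 6.77 ± 0.456 in C, and 10.1 ± 1.32 in D and 1.81 ± 0.126 in F (SD, n = 2). The log2 fold change over both sets fell by 1.62 ± 0.15 (SE, edgeR adjusted p = 0.000165), with the call kept in all 18 alternatives. None of its 31-base words occurred in genes elsewhere. XRCC5 itself had a log2 fold change of -0.16 and was not called.

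LINC01116 (chr2:176629589-176637931, minus strand), an RNA of the HOXD region raised in several carcinomas, was called lower on very few counts. It had 53 and 71 in A, 69 and 78 in B, and 39 and 54 in C, which overlapped. In D it had 6 and 4 counts, and it had 0 in E1, E2, F1 and F2. The mean CPM of D was 1.33-fold above an F level set at 3 counts per library. The fitted log2 fold change was -2.55 ± 0.57 (SE, edgeR adjusted p = 0.0324). It was kept in 7 of 18 alternatives and lost without A1, A2, B1, B2, D1, D2, F1 or F2, at log2 fold changes of -2.67 to -2.37. DESeq2 gave an adjusted p of 0.0563.

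**Figure D2:**
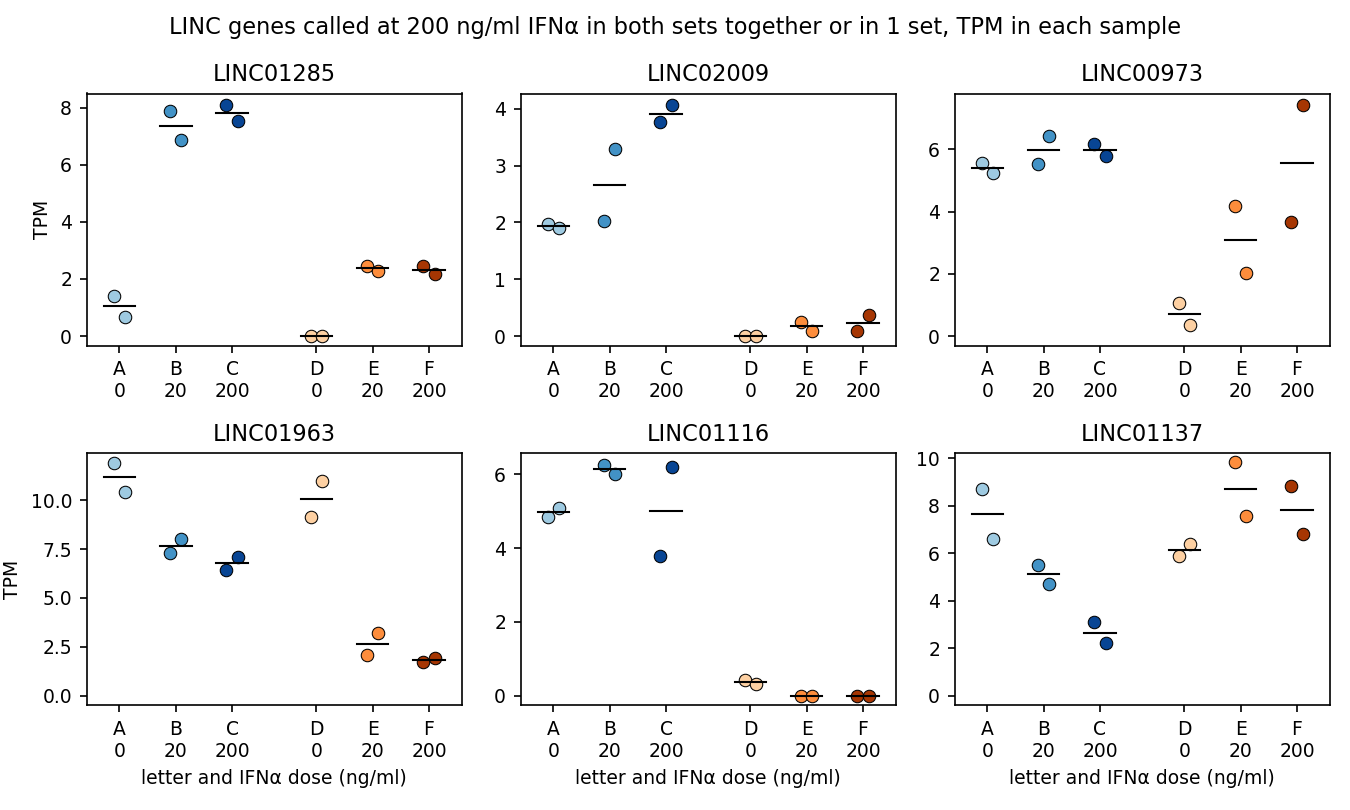
TPM (vertical axis of each panel, linear) by letter and IFNα dose for the 5 LINC genes called at 200 ng/ml over both sets and for LINC01137, called in set A-C, with points for samples and bars for the mean of 2 replicates. LINC01285 rises from 0 to above 2 TPM in set D-F and from about 1 to above 6 TPM in set A-C, and LINC01963 falls in both sets.

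At 20 ng/ml, LINC01285 was again higher and LINC01963 again lower, and these 2 of 116 were the calls, against 1.15% of all tested genes, 0.963% higher and 0.186% lower. The fitted log2 fold change of LINC01285 was 5.43 ± 0.38 (SE, edgeR adjusted p = 7.02e-05), and E was at least 13.4-fold above D. Over the alternatives its fitted value lay between 3.71 and 5.70. LINC01963 had a log2 fold change of -1.26 ± 0.15 (SE, edgeR adjusted p = 0.00116). DESeq2 called LINC02009 in addition. The controls are shared with the 200 ng/ml comparison, so the doses are not independent of each other on this point. Between 200 and 20 ng/ml directly, 0 of 116 were called by edgeR or DESeq2, with 9 at an unadjusted p of at most 0.05 in edgeR and 6 in DESeq2, beside 0.0451% called among all tested genes, 0.015% higher and 0.0301% lower. For LINC01285 the log2 difference between the doses was 0.02 ± 0.22 and for LINC01963 it was -0.37 ± 0.16 (SE, edgeR adjusted p = 1 and 0.523).

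Fitted for each set by itself, the 200 ng/ml dose gave 2 calls of 116 in set A-C and 9 of 116 in set D-F. The background was 2.18% of tested genes in set A-C, 1.41% higher and 0.767% lower, and 2.09% in set D-F, 1.67% higher and 0.416% lower. LINC01285 was called in both, with a log2 fold change of 2.88 ± 0.33 in set A-C (SE, edgeR adjusted p = 0.00211). LINC02009, LINC00973, LINC01605 and LINC00941 were called higher in set D-F and not in set A-C, and LINC01963, LINC01116, LINC00431 and LINC02035 lower. LINC01137 was called lower in set A-C and not in set D-F. Leaving out 1 sample at a time gave 1 to 4 calls in set A-C and 3 to 7 in set D-F, with 3 without F2, and the replicate block gave 4 in set D-F. The set D-F call of LINC02009, on 0 counts in both D samples against 2 and 8 in F, held in 4 of 18 alternatives, with log2 fold changes of 1.57 to 6.09, and among the fits that left out 1 sample it held without F1 alone. That of LINC01116 held in 7 of 18 and was lost without A1, A2, B1, B2, D1, D2, F1 or F2. That of LINC00973 held in 16 of 18 and was lost without D2 or F2, at 2.3. Being called in 1 set is not a test of the difference between sets, which is given separately.

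LINC01605 and LINC00941 were lower in untreated D than in A and higher in F than in D. The same D samples enter both comparisons, which are therefore not independent of each other. LINC01605 had 62 and 65 counts in A, 57 and 53 in C, 19 and 21 in D, 30 and 26 in E, and 34 and 48 in F, with a log2 fold change in set D-F of 1.35 ± 0.31 (SE, edgeR adjusted p = 0.0352). LINC00941, which restrains keratinocyte differentiation, had 72 and 96 in A, 63 and 80 in C, 36 and 32 in D, 42 and 80 in E, and 74 and 64 in F. Its log2 fold change in set D-F was 1.34 ± 0.31 (SE, edgeR adjusted p = 0.0369). In both genes F lay above D without overlap. The call held in 7 of 18 alternatives for LINC01605 and was lost without A1, A2, D1, D2, E1, E2, F1 or F2, at log2 fold changes of 1.09 to 1.56. For LINC00941 it held in 9 of 18 and was lost without A1, A2, B1, B2, D1, D2, F1 or F2, at 1.21 to 1.45. Most of the LINC00941 sequence, 92.2% of its words, lies in an overlapping gene record of the same name in GENCODE 29, so its count may depend on how these were told apart.

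LINC01137 (chr1:37454879-37474411, minus strand) starts 0.141 kb from ZC3H12A, the gene of an RNase that limits inflammatory mRNAs, on the opposite strand. It had 95 and 93 counts in A, 60 and 60 in B, and 32 and 19 in C. In set D-F it had 72 and 81 in D, 89 and 75 in E, and 82 and 65 in F. The doses of set A-C did not overlap, with C lowest, while those of set D-F did. The log2 fold change was -1.49 ± 0.28 in set A-C (SE, edgeR adjusted p = 0.0161) and 0.27 ± 0.26 in set D-F. The call was lost without A1, at -1.31, or C2, at -1.24. The difference between the sets was 1.76 ± 0.39 on the log2 scale (SE, edgeR adjusted p = 0.0561) and was not called. ZC3H12A had a log2 fold change of 0.29 over both sets and was not called.

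LINC02035, a single-exon gene 5.80 kb from the coding gene DIRC2, had 169 and 135 counts in D, 79 and 82 in E, and 47 and 53 in F. In set A-C it had 122 and 141 in A, 80 and 81 in B, and 74 and 67 in C. Treated samples lay below the controls in both sets. The log2 fold change was -1.28 ± 0.20 in set D-F (SE, edgeR adjusted p = 0.00494) and -0.48 ± 0.20 in set A-C, where the adjusted p was 0.183 in edgeR. The set D-F call was lost without F1, at -1.22. LINC00431, an unprocessed pseudogene that shares 25% of its words with TUBGCP3, had 19 and 16 counts in D and 5 and 5 in F. Its log2 fold change of -1.46 ± 0.36 in set D-F (SE, edgeR adjusted p = 0.0438) kept its call in 3 of 18 alternatives and lost it without any of A1, A2, B1, B2, C1, C2, D1, D2, F1 or F2, at -1.6 to -1.33.

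At 20 ng/ml, set A-C gave 1 call (background 0.712%, 0.632% higher and 0.0802% lower), LINC01285, and set D-F gave 4 calls (background 1.41%, 1.2% higher and 0.211% lower), LINC01285 higher and LINC01963, LINC01116 and LINC01503 lower. LINC01503, a TP63-driven RNA of squamous carcinoma, had 192 and 116 counts in D, 44 and 52 in E, and 69 and 48 in F. Its log2 fold change in set D-F was -1.36 ± 0.28 at 20 ng/ml (SE, edgeR adjusted p = 0.0294) and -1.07 ± 0.27 at 200 ng/ml, where the adjusted p was 0.0532 in edgeR and DESeq2 called it lower. In set A-C the values were -0.19 ± 0.26 at 20 ng/ml and -0.21 ± 0.26 at 200 ng/ml (SE), neither called. The difference between the sets was not called at 20 or 200 ng/ml (edgeR adjusted p = 0.304 and 0.273).

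The difference between the sets in the response to 200 ng/ml was called for 2 of 116 LINC genes, 1 in each direction, against 0.998% of tested genes, 0.622% higher in set D-F and 0.376% lower. LINC01963 fell further in set D-F, with log2 fold changes of -2.54 ± 0.23 in set D-F and -0.71 ± 0.20 in set A-C and a difference of -1.84 ± 0.30 (SE, edgeR adjusted p = 0.0228). Over the alternatives the difference lay between -2.0 and -1.67 and kept its call in 11 of 18, and it was lost without A1, A2, C2, D2, F1 or F2, at -1.93 to -1.67. LINC01285 had a fitted difference of 5.13 ± 0.98 (SE, edgeR adjusted p = 0.0422), which rests on the 0 counts of D1 and D2 and kept its call in 2 of 18 alternatives. Of the fits that left out 1 sample, the one without A2 kept it. On the log2(TPM + 0.1) scale limma gave 1.73 with an adjusted p of 0.156. LINC01468 passed the adjusted p in this comparison without reaching 2-fold, with a log2 fold change of 0.77 ± 0.09 in set A-C and -0.02 ± 0.09 in set D-F (SE, edgeR adjusted p of the difference = 0.0191). At 20 ng/ml the difference was called for 0 of 116 by edgeR, with 19 at an unadjusted p of at most 0.05, and for LINC01963 by DESeq2, beside 0.231% of tested genes in edgeR, 0.165% higher and 0.0652% lower.

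**Figure D3:**
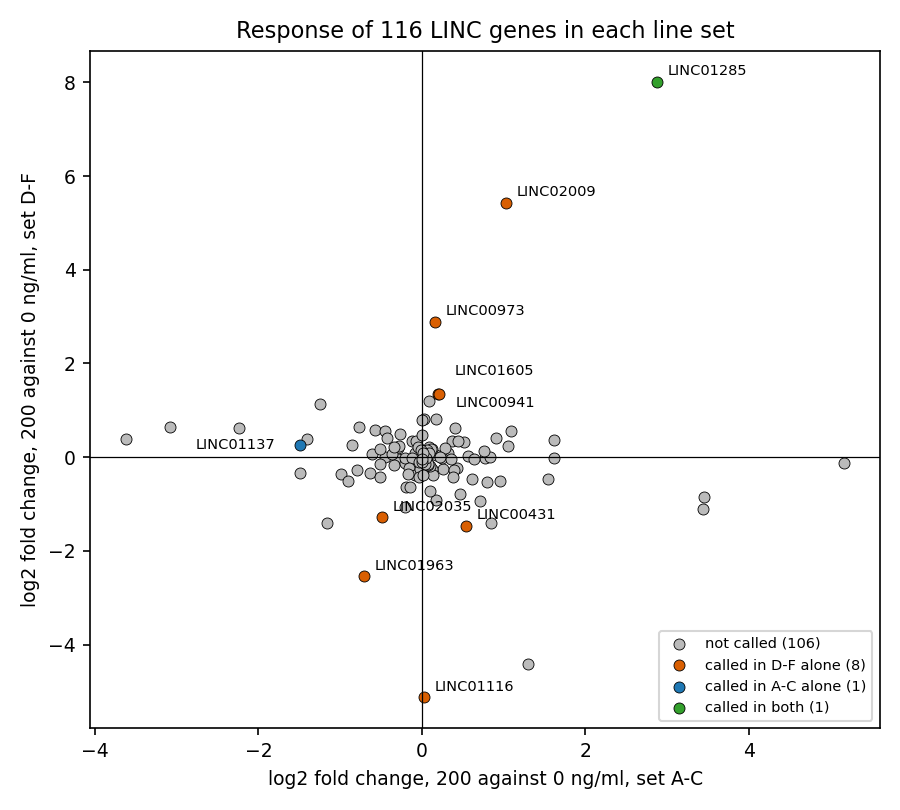
Log2 fold change from 0 to 200 ng/ml in set A-C (horizontal axis) and set D-F (vertical axis) for the 116 LINC genes, coloured by the set in which edgeR called them. LINC01285 is the gene called in both, and values far from 0 in genes at or near 0 counts depend on the prior count.

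Untreated D and A differed in many more LINC genes than either dose changed. D was higher for 32 and lower for 18 of the 116, which is 43.1%, where 26.6% of all tested genes were called, 15.7% higher and 11.0% lower. Of 868 other lincRNA genes tested, 39.4% were called. A LINC gene at 0 in one set could only reach the mean count of 20 through the other, so the share among the 116 supports nothing about LINC genes as a class. Of the 116, 88 had more than 3 counts in all 12 samples, 8 were at or under 3 counts in every sample of set A-C, and 3 were so in every sample of set D-F.

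Among the genes held by set D-F, LINC01021 had 1480 and 1109 counts in D, 288 and 558 in E, and 282 and 688 in F, and 0 in A, so that D was at least 416-fold above A. Both D samples lay above every E and F sample, although the log2 fold change in set D-F at 200 ng/ml, -1.10 ± 0.45 (SE, edgeR adjusted p = 0.241), was not called. LINC00665 had 440 and 466 counts in D and 0 in A, at least 145-fold. Its treated samples of set A-C were not all within 3 counts of 0. The fitted log2 fold change in set A-C at 200 ng/ml was 5.16 ± 2.05 (SE, edgeR adjusted p = 0.184). That value depends on the prior count and was not called by edgeR, whereas DESeq2 called the gene higher there. LINC00662 had 292 and 313 in D and 3 and 0 in A, a fitted log2 difference of 7.39 ± 0.65 (SE, edgeR adjusted p = 1.62e-05). The lower bound was 49.3-fold for LINC01419, 28.6-fold for LINC00484, 27.6-fold for LINC00667 and 16.7-fold for LINC01535, each at 0 in A. LINC01446 had 334 and 322 counts in D against 0 and 4 in A, a fitted log2 difference of 7.15 ± 0.63 (SE, edgeR adjusted p = 1.62e-05). The fitted differences of LINC00662 and LINC01446 depend on the prior count because A was at or near 0. They are not lower bounds and cannot be set beside them. LINC00665 and LINC01535, both on chromosome 19, share sequence, with 25.7% of the words of LINC01535 found in LINC00665.

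Among the genes held by set A-C, LINC02177 had 76 and 88 counts in A and 0 and 2 in D, a fitted log2 difference of -6.30 ± 0.80 (SE, edgeR adjusted p = 0.000259). LINC01508 had 54 and 73 in A and 0 in D, at least 21.6-fold, and LINC00452 35 and 40 in A and 0 in D, at least 12.9-fold. LINC00460, an RNA raised in squamous carcinomas, had 44 and 54 in A and 2 and 0 in D, a fitted log2 difference of -5.55 ± 1.04 (SE, edgeR adjusted p = 0.00178). LINC02009 and LINC01285, both called higher with IFNα, were lower in untreated D, by at least 17.4-fold and 6.39-fold. The D samples are shared by the dose and the untreated comparisons, so those comparisons are not independent of each other. LINC01116 was 12.6-fold lower in D in CPM, with a log2 difference of -3.72 ± 0.41 (SE, edgeR adjusted p = 0.000224). LINC00880 had 45 and 66 counts in A and 6 and 0 in D, with a fitted log2 difference of -4.26 ± 0.72 (SE, edgeR adjusted p = 0.00202). The fitted differences of LINC02177, LINC00460 and LINC00880 depend on the prior count because D was at or near 0. They are not lower bounds and cannot be set beside them.

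**Figure D4:**
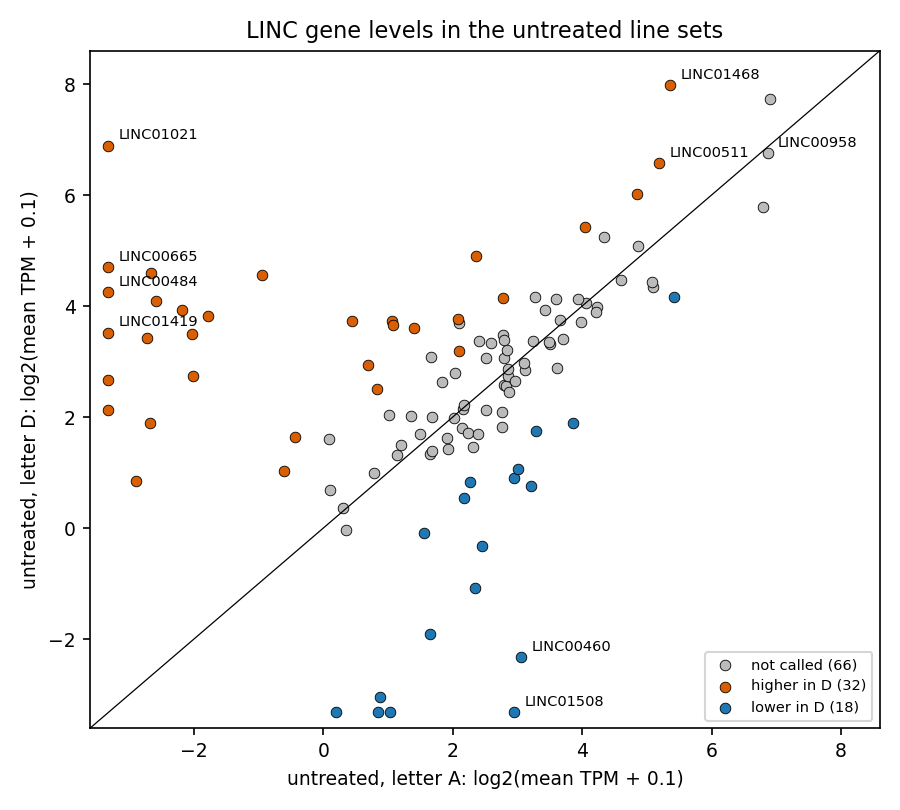
Mean TPM of 2 untreated replicates on a log2(TPM + 0.1) scale in letter A (horizontal axis) and letter D (vertical axis) for the 116 LINC genes, coloured by the edgeR call, with the line of equal levels. The column of points at the left edge holds genes listed at 0 in A, among them LINC01021, LINC00665, LINC00484 and LINC01419.

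Of a list of 10 LINC genes linked to squamous carcinoma, 6 were among the 116. LINC01133, LINC00520 and LINC00473 had mean counts of 2.5, 0.667 and 0.917, and LINC00152 was not found under that symbol. At 200 ng/ml over both sets, 1 of the 6 was called, LINC01116, lower, where 0.552% of all tested genes were called lower, and that call rests on 6 and 4 counts in D and held in 7 of 18 alternatives. LINC00511 had a log2 fold change of 0.11 ± 0.09 and LINC01503 of -0.64 ± 0.19. LINC00941 had 0.77 ± 0.22, LINC00460 0.65 ± 0.81 and LINC00707 -0.28 ± 0.39 (SE). Between untreated sets, LINC00511 was higher in D and LINC00460, LINC00941, LINC00707 and LINC01116 were lower, while LINC01503 did not reach 2-fold, beside the 26.6% of all tested genes called in that comparison.

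Of a list of 6 LINC symbols whose transcripts encode microproteins, LINC00998 and LINC00116 were among the 116 and LINC00675 had a mean count of 2.08. LINC00998, the gene of the membrane microprotein SMIM30, had 11.3 to 27.6 TPM in set A-C and 37.7 to 56.8 in set D-F, and its log2 difference between untreated sets was 1.24 ± 0.23 (SE, edgeR adjusted p = 0.00177). LINC00116, which encodes the mitochondrial microprotein mitoregulin, had 7.10 to 14.6 TPM in set A-C and 11.9 to 19.6 in set D-F. Their log2 fold changes at 200 ng/ml were -0.15 ± 0.17 and -0.02 ± 0.25 (SE), and neither was called.

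Most LINC genes, like most other tested genes, lay more than 1000 kb from a coding gene that IFNα induced. The distance from each to the nearest of 236 coding genes called higher at 200 ng/ml, measured between gene bodies, ranged from 6.80 to 84606 kb with a median of 6176 kb. Within 100 kb there was 1 of 116, or 0.862%, against 4.83% of all other tested genes and 3.57% of other lincRNA genes. Within 1000 kb there were 16, or 13.8%, against 23.1% and 17.5%. These shares are a description without a test.

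The gene within 100 kb was LINC00969, 6.80 kb from MUC4, the gene of a membrane mucin. MUC4 had a log2 fold change of 1.09 ± 0.25 (SE, edgeR adjusted p = 0.0232), whereas LINC00969 had 0.03 ± 0.07. LINC00969 overlaps MUC20 on the same strand and shares 20.5% of its words with genes elsewhere, so its counts are uncertain. The next closest were LINC01128, 142 kb from the ubiquitin-like modifier gene ISG15, and LINC00674, 152 kb from the transporter gene SLC16A6. LINC02035 lay 156 kb from the ADP-ribosyltransferase gene PARP14, and LINC01001 168 kb from IFITM2, a gene that restricts viral entry. LINC00115 lay 174 kb from ISG15, and LINC02001 194 kb from SLFN11, a gene that blocks stressed replication forks. ISG15 rose by a log2 fold change of 4.2 and PARP14 by 2.58, while the log2 fold changes of LINC01128, LINC00115 and LINC02035 were 0.24, -0.42 and -0.88, none of them called. LINC02035 missed the call on fold, with an adjusted p of 0.00432 in edgeR, and was called lower in set D-F.

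The 5 called LINC genes were between 2138 and 15877 kb from an induced coding gene. LINC01285 lay 45 kb from IL13RA1, a subunit of the IL-13 receptor, whose log2 fold change was -0.12, and 15877 kb from its nearest induced coding gene, FAM122C. LINC00973 lay 79.4 kb from DCBLD2, a membrane receptor gene with a log2 fold change of 0.47 (edgeR adjusted p = 0.00104), under 2-fold and therefore not called.

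**Figure D5:**
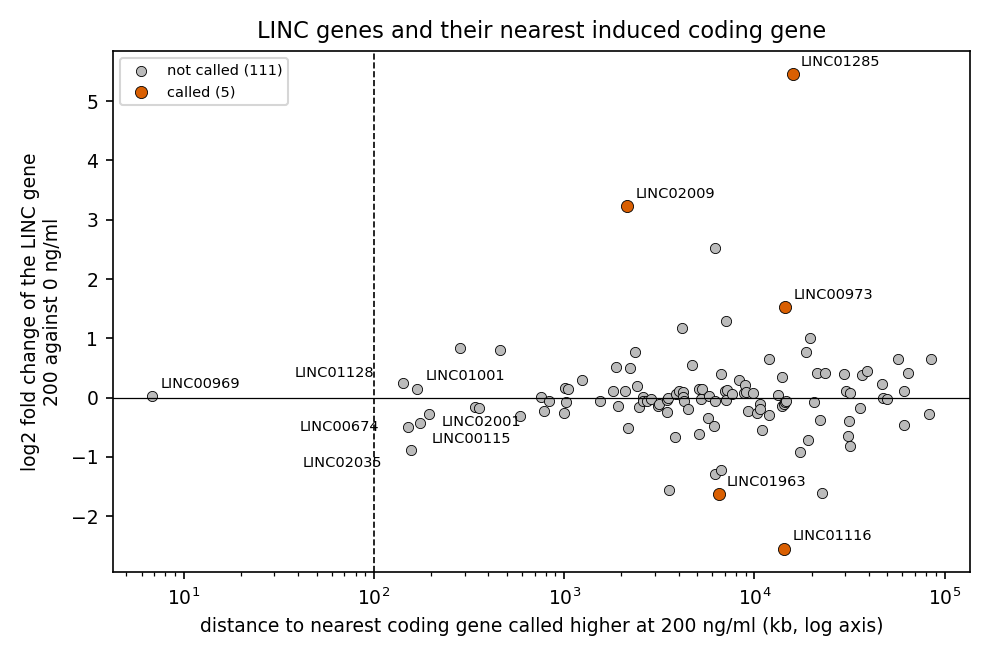
Log2 fold change at 200 ng/ml (vertical axis) of the 116 LINC genes against the distance in kb to the nearest coding gene called higher at that dose (horizontal axis, log scale), with the dashed line at 100 kb. The 5 called genes lie beyond 1000 kb, and LINC00969 is the gene to the left of the line.

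RefSeq promoters were found for 68 of the 116 LINC genes, 80 promoters in all, and for 47 genes a RefSeq start lay within 100 bases of the deposited start. The ISRE core, on either strand, was found in 3 of the 80 promoters, or 3.75%, against 3.57% of all 35116 promoters and 31.5% of 203 promoters of induced coding genes. The 3 belonged to LINC00623, LINC00310 and LINC01138. At 200 ng/ml their log2 fold changes were 0.39 ± 0.22, 0.13 ± 0.33 and 0.50 ± 0.26 (SE), and none was called. LINC00623 shares 71.2% of its words with genes elsewhere, and the RefSeq starts of LINC00310 and LINC01138 lay 22953 and 59684 bases from the deposited ones. The sequence around the core was nearly the same in LINC00623 and LINC01138, so their cores are not independent occurrences. The gamma-activated site, which reads the same on both strands and can overlap the ISRE core, was in 7 of the 80, or 8.75%, against 7.66% of all promoters and 14.3% of those of induced coding genes.

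The LINC genes whose levels followed LINC01285 most closely over the 12 samples were LINC01605, LINC00973, LINC00941, LINC00641 and LINC02009. Their Pearson correlations with it were 0.836, 0.831, 0.725, 0.722 and 0.719. These describe 12 samples that share the difference between sets, the doses and the library depth, and LINC00641 was not called in any dose comparison. Of the 116 LINC genes, 39 overlapped another tested gene and 19 a tested coding gene. Of the 116, 67 had under 5% of their words in genes elsewhere and 18 had at least 20%.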

How the data were processed

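RNA of the 12 samples was depleted of rRNA and made into strand-specific libraries that were run on the HiseqXTen platform. The submitters' processing notes name Trimmomatic 0.36, HISAT2 2.1.0, StringTie 1.3.3b and GRCh38.p10, while the counting program, its strand setting and the annotation release are not given in the sources used here. The authors deposited estimated counts per gene as whole numbers without scaling. They also deposited TPM, scaled for length and depth, and FPKM, which was not used.

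Counts were tested with edgeR 4.0.16 in R 4.3.3 over all genes that passed filterByExpr, in one fit of the 6 letters with TMM normalization, quasi-likelihood tests and adjustment by Benjamini-Hochberg. Contrasts over both sets averaged the change of each set. A call required at least 2-fold and an adjusted p of at most 0.05, the fold being that of the study's methods, which name t-tests and do not mention an adjustment, and the unadjusted threshold was an alternative. The SE was obtained by dividing the log2 fold change by the root of edgeR's F. Where neither sample of a letter exceeded 3 counts, folds were set against 3 counts per library. They bound the level of that letter alone, with the other letter taken at its mean. DESeq2 1.42.0, limma 3.58.1 on log2(TPM + 0.1), other scaling and filters, a replicate block and omission of each sample were alternatives. The fits were also run on counts simulated from the fitted dispersions, with the same changes in both sets. That simulation does not test calls that differ between sets.

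Gene types and transcripts came from GENCODE 29, which held all 116 genes, 104 of them at the same position, and promoters from RefSeq on GRCh38.p14. Word sharing is the percent of the 31-base words of a gene's transcripts that occur in other genes. The genes named were those called in any comparison (at most 15 per direction at 200 ng/ml, 10 at 20 ng/ml, 5 for a set or the set difference and 8 for untreated sets), the 8 with the highest mean TPM, those nearest the count limit, those within 100 kb of an induced coding gene, and members of the squamous and microprotein lists. LINC01503, LINC01468 and the ISRE and distance examples were added after their values were seen. The genes and lists were chosen with earlier results of these data known. Tables were made in pandas 2.3.3 and numpy 2.4.6, and figures in matplotlib 3.10.9, under Python 3.11.15.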

Additional observations from a re-analysis of the deposited data

Results flagged for a closer look

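The difference between the line sets in the response to 200 ng/ml was called by edgeR for 2 of 116 LINC genes, where 0.998% of all tested genes were called, and DESeq2 called LINC01963 and LINC00665 but not LINC01285. LINC01963 fell by 1.84 more on the log2 scale in set D-F than in set A-C, with an adjusted p of 0.0228, and over the alternatives the adjusted p lay between 0.000106 and 0.0894 and the call held in 11 of 18. LINC01285 had a fitted difference of 5.13, higher in set D-F, with an adjusted p of 0.0422 and between 0.039 and 0.156 over the alternatives, of which 2 of 18 kept the call. Its size depends on the prior count, since both untreated samples of set D-F were at 0, and in TPM the gain was larger in set A-C.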

How the results depend on the processing

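None of the calls followed across the alternatives changed direction under any of them, but many were lost, as given with each gene. With the replicate block, 3 LINC genes were called at 200 ng/ml over both sets, 4 in set D-F and 1 for the set difference. Deviations of same-numbered samples correlated at -0.03 to 0.05, and what equal replicate numbers share is not stated in the sources used here. Among genes with a mean count of at least 50, the calls were 2 over both sets, 5 in set D-F and 29 between untreated sets, and with at least 10 they were 83 between untreated sets, the counts following from the number of genes kept. At the unadjusted p, 5 were called at 20 ng/ml, 7 in set A-C and 20 for the set difference. DESeq2 called 4 in set A-C, and without the filter on low counts 1 was called for the set difference.

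Without 1 sample at a time, the calls were 2 to 5 at 200 ng/ml over both sets, with 3 without A2 or D1 and 2 without F2. They were 2 to 3 at 20 ng/ml, 0 to 0 between the doses, 1 to 4 in set A-C (4 without C1, 1 without C2), and 46 to 53 between untreated sets. In set D-F they were 3 to 7, with 3 without F2, 4 without A1, A2 or D1, and 5 without B1, B2 or F1. For the set difference they were 0 to 2, with 0 without C2, F1 or F2 and 1 without A1, A2, B1, B2, D1, D2, E1 or E2. A lone sample of a letter was assumed to vary like the other letters. Within 100 kb of an induced coding gene there were 0 LINC genes between start sites, 0 for coding genes called at 20 ng/ml, 0 for those called in both sets separately, and 3 with a mean count of at least 10. The 2 replicates per letter limit the precision, and the median SE of the log2 fold change at 200 ng/ml was 0.28.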

Other observations

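Among 149 LINC genes under the mean count of 20 that passed the filter, 1 was called at 200 ng/ml by edgeR, LINC01209, higher, and 0 by DESeq2, with 12 and 6 at an unadjusted p of at most 0.05. Of 868 other lincRNA genes tested with edgeR, 17 were called at 200 ng/ml, 9 higher and 8 lower, and 9 at 20 ng/ml, among them BISPR, a non-coding gene beside the interferon-induced gene BST2.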
